A study of Mus musculus with 4 samples.

Results

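Enpp2 and 8 other genes of lysophospholipid signalling were followed through the cell types of mouse popliteal vessels. They are Enpp2, the lysophosphatidate (LPA) receptor genes Lpar1, Lpar4 and Lpar6, the sphingosine 1-phosphate (S1P) receptor genes S1pr1, S1pr2 and S1pr3, and the lipid phosphatase genes Plpp1 and Plpp3. These 9 genes were picked by name from 32286 features, and Enpp2 and S1pr3 were included because earlier results of these data had shown them to lead opposite kinds of muscle cell. Their levels and differences in muscle are therefore given as a description, and nothing is read from their place among genes that passed a muscle comparison.

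Autotaxin, the secreted enzyme made from Enpp2, cuts lysophosphatidylcholine outside the cell to give LPA, a lipid messenger that acts through G protein-coupled receptors on nearby cells. S1P, a related lipid made inside cells by sphingosine kinases and carried out by transporters, acts through its own receptor family, and its receptor S1PR1 is known for holding endothelial junctions together and for guiding lymphocytes. Lipid phosphate phosphatases at the cell surface dephosphorylate both lipids and so end their signals. In vessel muscle, receptors that couple to G12/13 are known to raise contraction.

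Single-cell RNA was measured with a 3' droplet method, in which a unique molecular identifier (UMI) marks every captured molecule. All animals were adult mice of 1 cross, WT1GFPCre (Wt1tm1(EGFP/cre)Wtp/J) with Ai9-tdT, the Cre reporter allele Gt(ROSA)26Sortm9(CAG-tdTomato)Hze. Cre is driven from the Wt1 locus in this cross, and all mice had received K/X anaesthesia and 4% Evans blue in the footpad. The 2 popliteal lymphatic vessel (PLV) libraries were replicates from separate pools of 2 mice, digested for 30 min with collagenase I, Dispase II, DNAse and Liberase. A further library, called the mixed library, joined hashed PLV and BV cells from 1 pool of 2 mice after 60 min of digestion without DNAse or Liberase. Its hashtags were not used here, so it is treated as 1 sample. Vessel, digestion, mice, hashing, the version of the counting software and the filtering of deposited barcodes differ together between both PLV libraries and the mixed one. They cannot be told apart.

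After filtering, 1909 cells of PLV replicate 1, 516 of PLV replicate 2 and 994 of the mixed library remained, with medians of 3372, 4886.5 and 6162 UMIs per cell, and no pair of libraries shared a barcode. Cells were clustered in each library without the 9 genes, and clusters were named from marker lists, with the suffix "-like". Muscle-like cells (421, 113 and 322 cells in that order of libraries) held all 9 of their markers, among them Myh11 and Acta2, at 2-fold or more over the other cells in every library. The lymphatic endothelial-like class was less firmly marked, with 4 of 7, 7 of 7 and 4 of 7 markers at that level, and 2 of its markers at 0 UMIs in the mixed library.

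Levels are CPM, the UMIs of a gene scaled to 1 common UMI total for every class, and 3 values in a row stand for PLV replicate 1, then PLV replicate 2, then the mixed library. Intervals cover counting error only, at 95% (exact Poisson). In sums over cells, fewer expressing cells and less RNA per cell cannot be told apart.

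Enpp2 lies on chromosome 15 at 54838901 to 54952892, minus strand, in GRCm38 (ENSMUSG00000022425). Its level in muscle-like cells was 650, 964 and 687 CPM, a mean of 767 ± 172 (SD, n = 3), and in each library this was the highest of the 7 classes named in all 3. Pericyte-like cells came second in every library, at 255, 394 and 139 CPM. Fibroblast-like cells had 113, 160 and 15.7 CPM, and lymphatic and blood endothelial-like cells lay between 25.2 and 100.2 CPM. Macrophage-like cells held 1 Enpp2 UMI in all.

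Droplets of under 50 UMIs in the mixed library, which hold RNA free of cells, carried Enpp2 at 69.95 CPM (54.5 to 88.4). The mixed-library levels in fibroblast-like (15.7), lymphatic endothelial-like (25.2) and blood endothelial-like cells (51.4) were below that share of the free RNA. That share is not the amount free RNA adds to cells: macrophage-like cells and the Pln and Sorbs2 muscle kind described next held 0 Enpp2 UMIs in that library. How much of the low levels came from free RNA was not tested. For the PLV libraries only barcodes already filtered by the authors were used, so the same level was not measured there.

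Within muscle the gene was split. One kind, marked by Ano1 and Hmcn2 (136, 55 and 193 cells), had 2001, 2381 and 1011 CPM of Enpp2, from 1429, 765 and 1300 UMIs. A second kind, marked by Pln and Sorbs2 (285, 58 and 53 cells), had 2.68, 6.31 and 0 CPM, from 4, 3 and 0 UMIs. The ranges of the kinds did not overlap in any library. The ratio was 746 (291 to 2742) in PLV replicate 1 and 377 (129 to 1834) in PLV replicate 2. In the mixed library it was 126 with the lower kind set to 3 UMIs, and the interval of the ratio starts at 102.6. Another kind, marked by P2rx1 and Col12a1 and found only in the mixed library (76 cells), stood between them at 497 CPM.

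S1pr3, on chromosome 13 at 51408639 to 51422797, plus strand (ENSMUSG00000067586), encodes an S1P receptor that couples to Gq and G12/13. It showed the opposite split: the Pln and Sorbs2 kind held 453, 423 and 304 CPM (675, 201 and 114 UMIs), a mean of 393 ± 78.5 (SD, n = 3). The Ano1 and Hmcn2 kind held 0 UMIs in each of the 3 libraries, where 3 UMIs would be 4.20, 9.34 and 2.33 CPM. Against that level the Pln and Sorbs2 kind was 108-fold, 45.3-fold and 130-fold higher. The intervals of the ratio start at 87.4, 36.5 and 104.3. The P2rx1 and Col12a1 kind held 52.6 CPM from 44 UMIs.

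**Figure D1:**
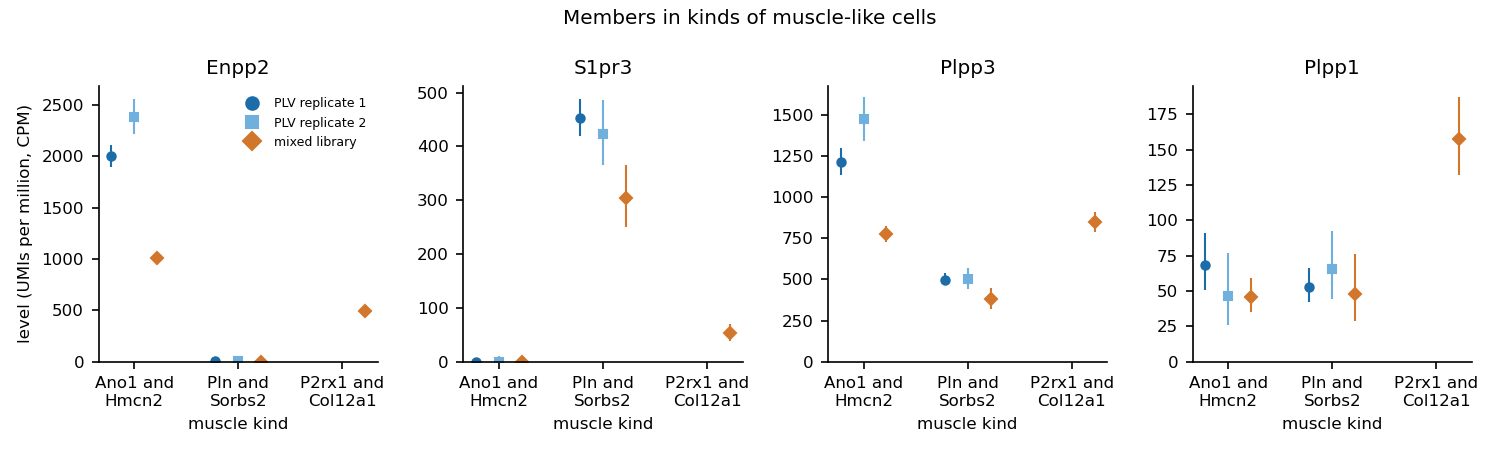
Levels in CPM of Enpp2, S1pr3, Plpp3 and Plpp1 in the 3 muscle kinds, 1 point per library with its exact Poisson interval. Enpp2 is high in the Ano1 and Hmcn2 kind (1011 to 2381 CPM) and S1pr3 in the Pln and Sorbs2 kind (304 to 453 CPM), while the Plpp1 ratios of those 2 kinds have intervals that include 1.

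The promoter window of S1pr3 was set beside that of Plpp3, which the same muscle kinds express at opposite relative levels. Both are RefSeq windows of 300 bases in GRCm38.p6, from 250 before to 50 after the start, plus strand, at chr13:51408368-51408667 and chr4:105157097-105157396; windows were found for 6 of the 9 genes. Capitals mark the GC box, GGGCGG, searched on both strands.

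S1pr3: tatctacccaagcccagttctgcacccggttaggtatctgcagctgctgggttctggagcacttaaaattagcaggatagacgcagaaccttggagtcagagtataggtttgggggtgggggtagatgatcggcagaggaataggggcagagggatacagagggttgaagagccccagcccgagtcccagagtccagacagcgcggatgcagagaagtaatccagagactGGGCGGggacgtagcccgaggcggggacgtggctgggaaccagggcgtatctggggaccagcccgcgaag

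Plpp3: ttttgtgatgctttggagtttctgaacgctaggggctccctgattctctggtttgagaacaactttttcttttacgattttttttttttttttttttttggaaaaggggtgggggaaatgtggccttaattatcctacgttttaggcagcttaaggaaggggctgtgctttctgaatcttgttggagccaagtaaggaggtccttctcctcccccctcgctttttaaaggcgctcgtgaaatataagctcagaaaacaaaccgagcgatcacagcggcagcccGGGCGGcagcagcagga

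Each of these windows holds 1 GC box, as do 35.7% of 32851 promoter windows of the same length. The E-box CANNTG matched once in the S1pr3 window and not in that of Plpp3, against 72.3% of all windows, and the CArG box matched in neither, against 1.63% of all windows. These matches are a description of letters only.

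Single cells showed the same separation. In PLV replicate 1, 132 of 421 muscle-like cells had an Enpp2 UMI without S1pr3, 232 had S1pr3 without Enpp2, 2 had both and 55 neither. In PLV replicate 2 the counts were 53, 49, 2 and 9 of 113. The mixed library had 231, 41, 20 and 30 of 322, and all 20 cells with both belonged to the P2rx1 and Col12a1 kind. That kind was the deepest there, with a median of 10020.5 UMIs per cell. Droplets of under 50 UMIs in that library carried S1pr3 at 16.99 CPM, and the part of free RNA in these cells was not tested.

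The shares were also taken at equal depth. After each cell was thinned to 1500 UMIs, Enpp2 was found in 88.7%, 89.8% and 67.9% of cells of the Ano1 and Hmcn2 kind. In the Pln and Sorbs2 kind the thinned share with Enpp2 was 0.358%, 0% and 0%, and the share with S1pr3 was 45.9%, 37.5% and 34.0%. In the P2rx1 and Col12a1 kind 52.0% had Enpp2 and 4.0% had S1pr3. Thinning left out cells under 1500 UMIs, which were 3, 6 and 9 of the Ano1 and Hmcn2 kind and 6, 2 and 0 of the Pln and Sorbs2 kind.

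**Figure D2:**
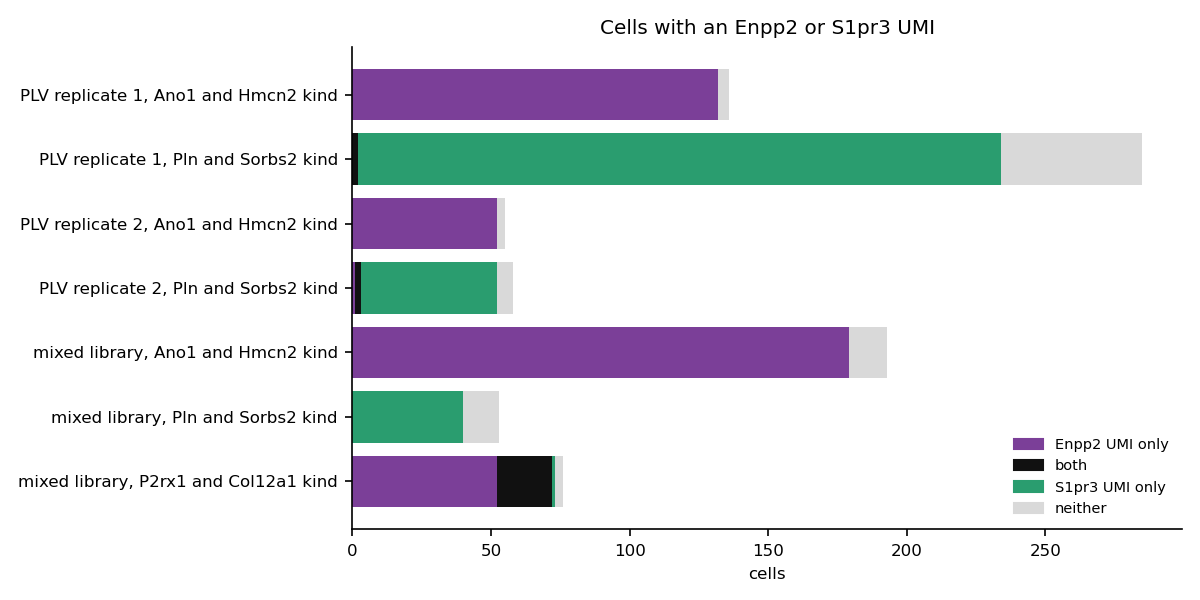
Number of muscle-like cells, by library and kind, with an Enpp2 UMI only, an S1pr3 UMI only, both or neither (x axis, cells). The 20 cells of the mixed library with both all lie in the P2rx1 and Col12a1 kind.

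Markers of other cell types also differed between the kinds, and their part in the split was not tested. The 9 fibroblast markers summed to 3342, 2798 and 5369 CPM in the Ano1 and Hmcn2 kind and to 579, 448 and 2180 CPM in the Pln and Sorbs2 kind. Muscle markers summed to 28680 to 32440 and 31270 to 34580 CPM. Pericyte markers were lower in the Ano1 and Hmcn2 kind in every library, at 2142, 1700 and 1339 CPM against 2338, 2140 and 1561 CPM. Macrophage markers summed to 4.20 CPM or less in the Ano1 and Hmcn2 kind and 22.1 or less in the Pln and Sorbs2 kind. Blood endothelial markers summed to 423, 255 and 270 CPM in the Ano1 and Hmcn2 kind, with 1, 3 and 3 of 9 at 0, against 52.3, 23.1 and 53.4 CPM in the Pln and Sorbs2 kind, with 1, 4 and 4 of 9 at 0. Schwann markers summed to 67.2, 84.1 and 58.3 CPM against 20.8, 10.5 and 13.3 CPM, and lymphatic endothelial markers to 51.8, 18.7 and 12.4 CPM against 3.35, 2.10 and 8.005 CPM. The fibroblast, blood endothelial, Schwann and lymphatic endothelial lists were higher in the Ano1 and Hmcn2 kind in every library, and the pericyte and macrophage lists were lower.

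The lncRNA gene Gm26684 overlaps Enpp2 on the opposite strand, and its reads cannot be told apart from those of Enpp2 where counting did not use strand, which is not stated. It had 16, 12 and 12 UMIs in the Ano1 and Hmcn2 kind and 0 in the Pln and Sorbs2 kind. Gm32834, opposite S1pr3, had 3, 1 and 0 UMIs in the Pln and Sorbs2 kind and 0 in the other.

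S1pr3 was not restricted to muscle. Schwann-like cells had 97.2, 230 and 107 CPM, pericyte-like cells 63.1, 36.7 and 36.2 CPM, and lymphatic endothelial-like and macrophage-like cells 0 UMIs in every library. Within the Schwann-like class the gene sat in 1 cluster of each library, led by genes such as Cadm2, Cdh19, Scn7a and Kcna2, at 642 (45 UMIs), 907 (36 UMIs) and 330 CPM (13 UMIs).

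Lpar1, the LPA receptor gene on chromosome 4 at 58435255 to 58553898, minus strand, marked fibroblast-like cells (258, 198 and 133 CPM) and Schwann-like cells (184, 140 and 214 CPM), whose ranges overlapped. Muscle-like cells had 1, 0 and 8 Lpar1 UMIs (0.453, 0 and 3.20 CPM). In Schwann-like cells it was highest in the same Scn7a-led clusters, at 442, 403 and 330 CPM. A pair of unnamed PLV clusters led by Sfrp5 and Cldn1 held 561 (15 cells) and 275 CPM (7 cells).

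Lpar4, on chromosome X at 106920625 to 106933900, plus strand, had low levels: 57.7, 59.5 and 17.0 CPM in fibroblast-like cells and 29.2, 29.9 and 27.6 CPM in blood endothelial-like cells. Schwann-like cells had 23.3, 51.0 and 41.1 CPM of it, from 11, 8 and 5 UMIs, a range that overlaps both. Lpar6, on chromosome 14 at 73237895 to 73243294, plus strand, lies inside Rb1 on the opposite strand and was mainly a blood endothelial gene here, at 110, 236 and 75.2 CPM. Macrophage-like cells came next for Lpar6, at 41.2, 21.6 and 22.6 CPM, and Schwann-like cells had none. Rb1 had 60, 50 and 74 UMIs in blood endothelial-like cells.

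S1pr1, on chromosome 3 at 115710433 to 115715072, minus strand, was the receptor gene of both endothelial classes. Blood endothelial-like cells had 698, 696 and 544 CPM (646 ± 88.2, SD, n = 3) and lymphatic endothelial-like cells 474, 588 and 405 CPM (489 ± 92.9), and blood endothelial-like cells were higher in each library, by 1.47, 1.18 and 1.35 times, although the ranges over libraries overlapped. It was highest in clusters led by Sema3g, with 811 CPM (PLV replicate 1) and 1028 CPM (mixed library). T cell-like and B cell-like cells of PLV replicate 1 had 338 and 258 CPM, and muscle-like cells 5.44, 0 and 2.80 CPM.

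S1pr2, on chromosome 9 at 20962361 to 20976781, minus strand, was low throughout. Fibroblast-like cells had 64.8, 45.2 and 36.9 CPM, above the 6.35, 5.02 and 5.61 CPM of muscle-like cells in all 3 libraries.

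**Figure D3:**
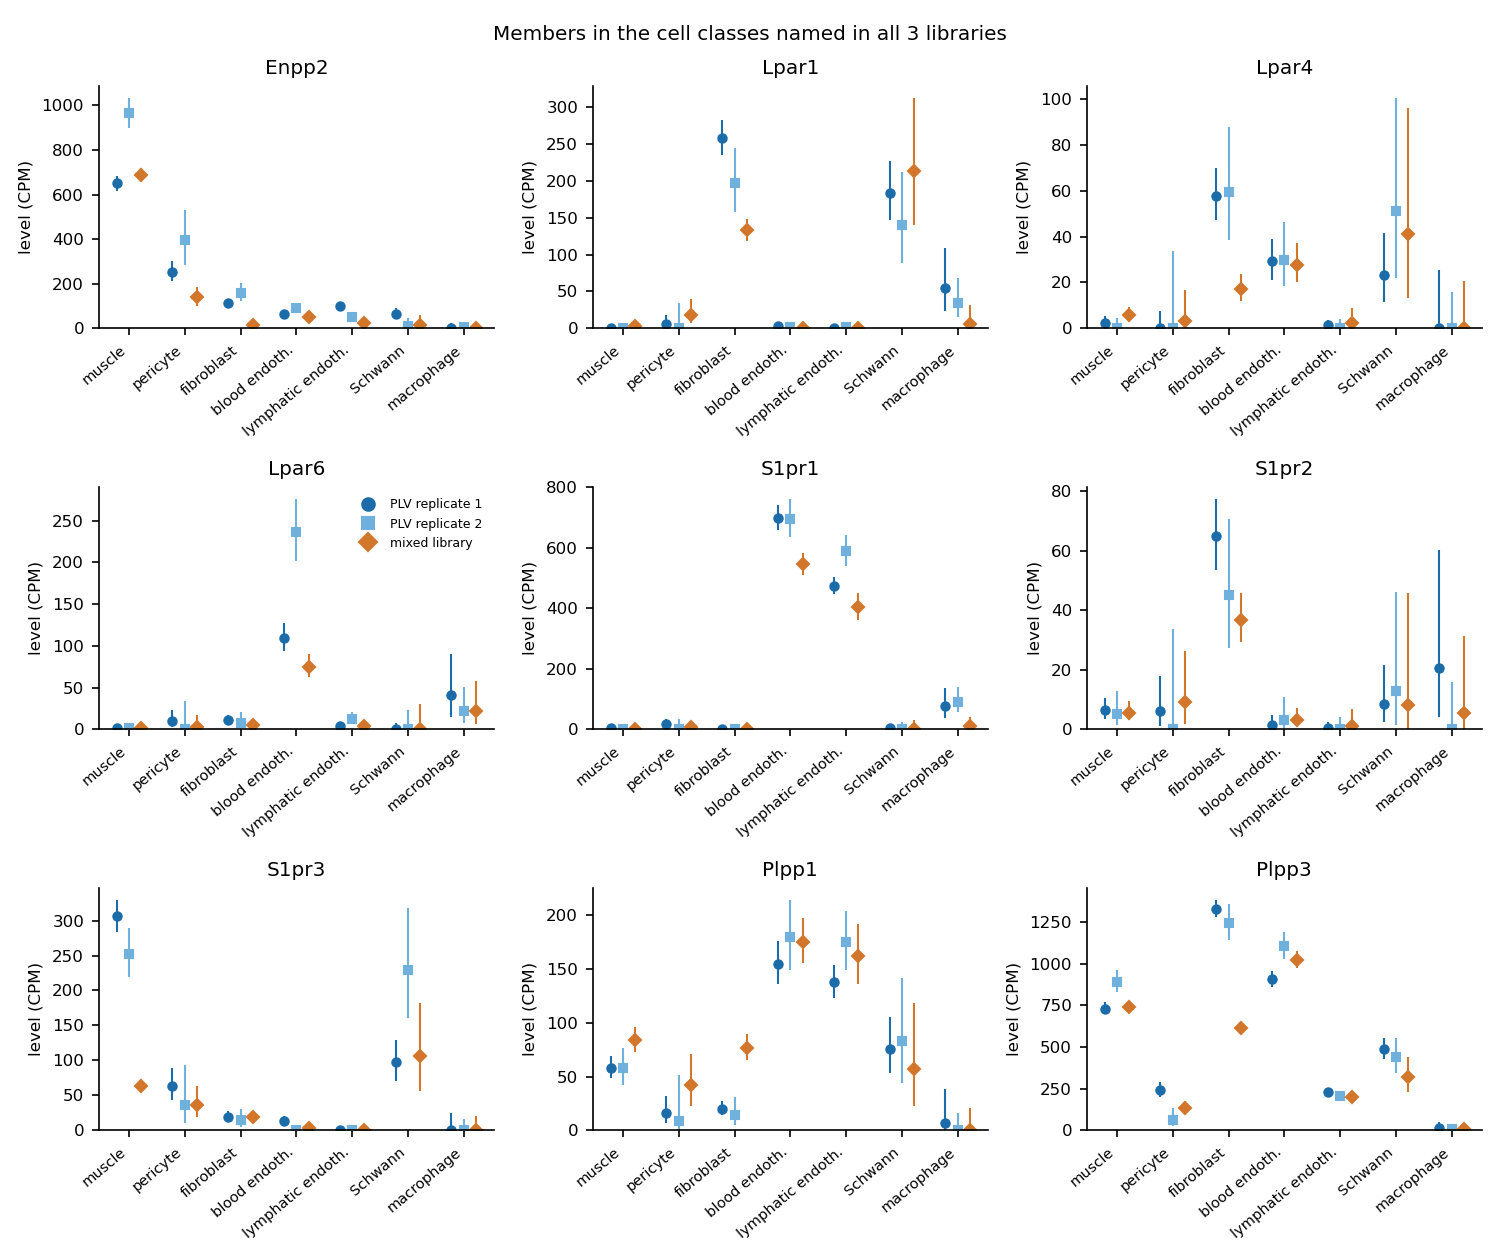
Levels in CPM of the 9 genes in the 7 classes named in all 3 libraries, 1 point per library with its exact Poisson interval and a separate axis for each gene. S1pr1 is high in the endothelial classes (405 to 698 CPM), Lpar1 in fibroblast-like and Schwann-like cells (133 to 258 CPM).

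Plpp3, on chromosome 4 at 105157347 to 105232764, plus strand, encodes a phosphatase of LPA and S1P that is known to be high in vessel endothelium. It had 1331, 1245 and 615 CPM in fibroblast-like, 908, 1107 and 1023 CPM in blood endothelial-like and 731, 893 and 740 CPM in muscle-like cells, and blood endothelial-like cells were above muscle-like cells in all 3 libraries, while the fibroblast-like range overlapped both. Lymphatic endothelial-like cells stood lower, at 232, 203 and 198 CPM. Droplets of under 50 UMIs in the mixed library carried Plpp3 at 199.9 CPM (173.1 to 229.6). How much of the lymphatic level came from free RNA was not tested. In the Ano1 and Hmcn2 kind Plpp3 was 1214, 1472 and 775 CPM, against 499, 501 and 382 CPM in the Pln and Sorbs2 kind. The ratio was 2.43 (2.20 to 2.68), 2.94 (2.51 to 3.45) and 2.03 (1.70 to 2.44).

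Plpp1, on chromosome 13 at 112800792 to 112867894, plus strand, is the gene of a related phosphatase. Mtrex, on the opposite strand, overlaps its 3' end, where this method reads, and had 108, 47 and 103 UMIs in muscle-like cells against 128, 46 and 209 for Plpp1; the strand doubt given for Enpp2 holds here as well. Its ranges overlapped in lymphatic (138, 175 and 162 CPM) and blood endothelial-like cells (155, 180 and 175 CPM). The 2 main muscle kinds could not be ordered for it, with ratios of 1.30 (0.888 to 1.87) toward the Ano1 and Hmcn2 kind and 1.40 (0.732 to 2.78) and 1.05 (0.581 to 1.80) toward the other. The P2rx1 and Col12a1 kind had 158 CPM. Fibroblast-like cells had 20.1, 14.3 and 76.9 CPM.

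Clusters within a class differed for several of the genes. Among fibroblast-like clusters Enpp2 was highest in the one led by Apod in each library, with Gpc3 and Smoc2 also leading: 918 (41 cells), 819 (14 cells) and 263 CPM (10 cells), against 0 to 117 CPM in the other PLV clusters and 0.955 to 45.4 CPM in the other mixed clusters. For Plpp3, PLV fibroblast-like clusters led by Smpd3 and Mrgprg reached 1949 and 2515 CPM. Blood endothelial-like clusters led by Gpihbp1 and Cd36 had more Plpp3 (1389.5 and 1292 CPM) than those led by Sema3g (350.5 and 421.0 CPM) in PLV replicate 1 and the mixed library.

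**Figure D4:**
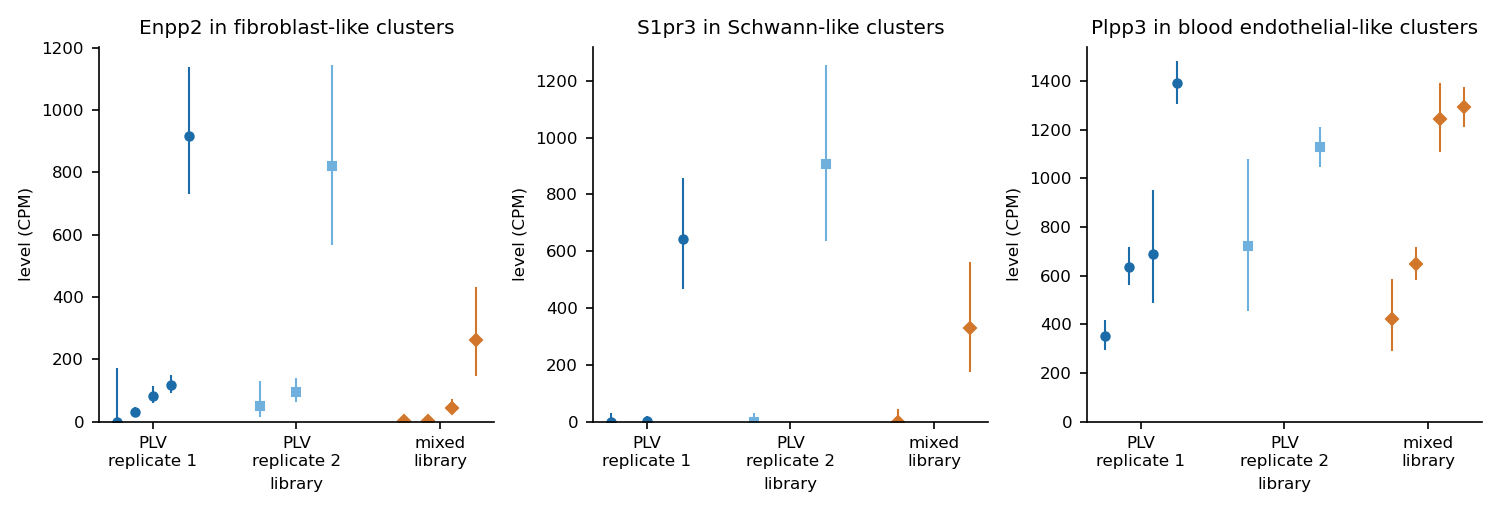
Levels in CPM of Enpp2 in fibroblast-like clusters, S1pr3 in Schwann-like clusters and Plpp3 in blood endothelial-like clusters, 1 point per cluster with its exact Poisson interval, sorted by level within each library. In fibroblast-like and Schwann-like cells a single cluster per library stands above the others.

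Tests compared sums of UMIs per library and class by edgeR's quasi-likelihood test with the library as a block, with Benjamini-Hochberg adjustment over 10437 genes. Cells were not used as replicates. The p-values rest on the spread left after classes and libraries were fitted, taken over all 7 classes and not only those compared. The first comparison asked how vessel muscle differs from fibroblasts. Of the 7 genes not chosen for muscle, 4 passed at an adjusted p of 0.05, where 37.2% of all genes did. All 4 were lower in muscle, where 20.2% of all genes were. The genes were picked with earlier results of these data known, so this and later counts beside such shares are a description. The filter on low counts ran over all classes, so Lpar1, with 1, 0 and 8 UMIs in muscle, was kept through other classes. The same holds for other genes near 0 in muscle, so their lower direction is no separate result.

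Lpar1 was the furthest down of those, by -6.99 on the log2 scale (SE 0.49, adjusted p = 3.274e-10 by edgeR). Lpar4 (-3.71, SE 0.52, adjusted p = 7.769e-06 by edgeR), S1pr2 (-3.26, SE 0.36, adjusted p = 1.709e-07 by edgeR) and Lpar6 (-2.57, SE 0.55, adjusted p = 0.0007723 by edgeR) were also lower, each in all 3 libraries. The Lpar6 difference rests on 4, 1 and 3 UMIs in muscle against 20, 3 and 12 in fibroblast-like cells. In the mixed library the fibroblast-like level was 5.53 CPM, below the 11.99 CPM of droplets of under 50 UMIs. For Lpar4 fibroblast-like cells were 25.5-fold higher in PLV replicate 1 and 3.04-fold in the mixed library. In PLV replicate 2 they were 15.8-fold higher with muscle, at 0 UMIs, set to 3 UMIs. The fitted Lpar4 value was -5.13 without the mixed library and -3.12 without PLV replicate 1.

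Plpp3 (-0.58), Plpp1 (0.53) and S1pr1 (0.65) did not pass. Plpp3 passed with at least 1000 UMIs per cell (adjusted p = 0.04699 by edgeR) and with 50 principal components (0.03989), and its direction differed between the PLV libraries, lower in muscle, and the mixed library, higher in muscle. Plpp1 was 2.88-fold and 4.04-fold higher in muscle in the PLV libraries and 1.09-fold in the mixed library, and without the mixed library it passed at 1.52 (adjusted p = 0.0003448 by edgeR). The values fitted for Enpp2 and S1pr3 were 3.22 and 2.93, as a description. For Enpp2 muscle-like cells were 5.74, 6.04 and 43.9-fold higher in the 3 libraries, and for S1pr3 15.6, 17.7 and 3.19-fold; without the mixed library the fitted values were 2.48 and 3.86. The median of the 9, those 2 included, was -0.578, and of all genes -0.0136.

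Against pericyte-like cells, the other mural class, 2 of the 7 genes not chosen for muscle passed, where 11.9% of all genes did, and both were higher in muscle, where 6.24% of all genes were. Plpp3 was higher in muscle by 2.46 (SE 0.29, adjusted p = 8.575e-06 by edgeR), in all 3 libraries. Plpp1 was higher by 1.59 (SE 0.50, adjusted p = 0.03883 by edgeR), a call lost under 8 of 15 alternatives, among them leaving out either PLV library. With DESeq2 Lpar1 also passed, lower in muscle. S1pr3 and Enpp2 had fitted values of 2.06 and 1.91, as a description. In PLV replicate 1 most pericyte-like cells (99) came from a cluster with a median of 979 UMIs per cell, and without it the Plpp1 call was lost.

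With the Ano1 and Hmcn2 kind alone standing for muscle, the fitted S1pr3 difference turned negative against both classes (that kind held 0 UMIs of the gene).

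The lymphatic endothelium was compared with the blood endothelium, where 19.9% of all genes passed and 11.2% were lower in the lymphatic class. Of the 9 genes, 4 passed, and all 4 were lower. S1pr3 is among the 4 but lends that count no support. The lymphatic class held 0 UMIs of it, and with only these 2 classes in the fit it was not tested. Lpar6 was lower by -4.51 (SE 0.36, adjusted p = 1.483e-08 by edgeR), Lpar4 by -4.42 (SE 0.68, adjusted p = 4.522e-05 by edgeR) and Plpp3 by -2.30 (SE 0.27, adjusted p = 1.248e-06 by edgeR), each in all 3 libraries. In PLV replicate 2 the lymphatic class had no Lpar4 UMI, and blood endothelial-like cells were 9.22-fold higher with that class set to 3 UMIs.

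The S1pr3 call in that comparison rests on few UMIs: 20, 0 and 6 in blood endothelial-like cells and 0 in the lymphatic class. With the lymphatic class set to 3 UMIs, blood endothelial-like cells were 9.88-fold higher in PLV replicate 1 and 1.04-fold higher in the mixed library. The mixed value sets no order, and the call was lost without PLV replicate 1. S1pr1 (-0.43, SE 0.29), Plpp1 (-0.12, SE 0.33) and Enpp2 (-0.28, SE 0.42) did not pass, with adjusted p of 0.399, 0.908 and 0.773 by edgeR. Enpp2 was 1.515-fold higher in the lymphatic class in PLV replicate 1. It was 1.694-fold and 2.038-fold higher in the blood class in PLV replicate 2 and the mixed library. With only these 2 classes in the fit, 4 of the 6 genes tested passed, where 2734 of 9898 genes did. S1pr3 was not tested there, so a further gene passed, lower in the lymphatic class.

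**Figure D5:**
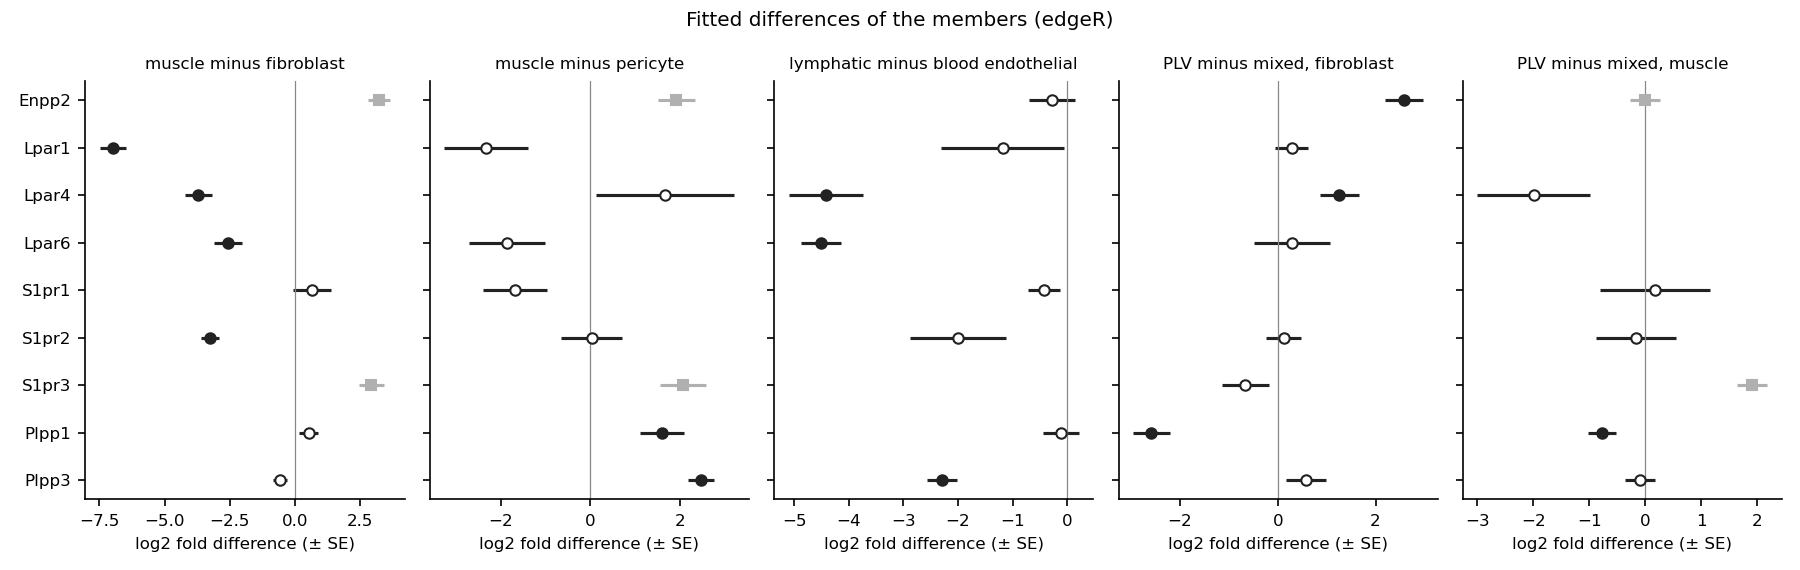
Fitted log2 differences with their SE for the 9 genes in 5 comparisons by edgeR. Filled circles passed at an adjusted p of 0.05, open circles did not, and grey squares are Enpp2 and S1pr3 in the 3 muscle comparisons, given as a description; S1pr3 is left out of the endothelial comparison, as the lymphatic class held 0 UMIs. Lpar1, Lpar4, Lpar6 and S1pr2 lie left of 0 for muscle against fibroblast.

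The 2 PLV libraries were set against the 1 mixed library in each of 4 classes, so the lone mixed library is assumed to vary like the PLV ones, and the tests speak of these 3 libraries. With a PLV library left out, 1 library was set against 1 in a fit over all classes (5 residual degrees of freedom against 1), so a call lost there comes with another form of fit as well as fewer libraries. In muscle-like cells 1 of the 5 genes tested that were not chosen for muscle passed with edgeR (Plpp1), where 16.7% of all genes did. With DESeq2, 0 of the 2 such genes that were given an adjusted p passed (Plpp1 and Plpp3), where 2.54% of all genes did. S1pr3, as a description, was higher in PLV by 1.92 (SE 0.27). The share of Pln and Sorbs2 cells, the kind that holds most S1pr3, among muscle-like cells was 67.7% and 51.3% in PLV and 16.5% in the mixed library. In that kind alone the fitted S1pr3 difference was 0.33 (SE 0.28). The part of the kind shares in the S1pr3 difference was not tested.

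Plpp1 in muscle was lower in PLV by -0.77 (SE 0.25, adjusted p = 0.01677 by edgeR). Its fitted difference was 0.11 in the Ano1 and Hmcn2 kind alone and 0.04 in the Pln and Sorbs2 kind alone, and neither passed, where 0.253% and 3.43% of all genes did. The Plpp1 call was lost with DESeq2, in the fits without either PLV library, and at Leiden resolution 0.5, where no gene passed. The P2rx1 and Col12a1 kind, the highest in Plpp1 of the muscle kinds, made up 23.6% of mixed muscle-like cells and was not found in the PLV libraries. Its part in the Plpp1 difference was not tested. Enpp2 in muscle, as a description, differed by -0.00014 (SE 0.27). The Ano1 and Hmcn2 kind, which holds most Enpp2, made up 32.3% and 48.7% of PLV muscle-like cells and 59.9% in the mixed library. In that kind alone the fitted Enpp2 difference was 0.84 (SE 0.27). The P2rx1 and Col12a1 kind of the mixed library held Enpp2 too, in 52 of its 76 cells without S1pr3 and in 20 with it. The part of the kind shares in these values was not tested.

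In fibroblast-like cells 2 of 8 tested were higher in PLV with edgeR, where 5.51% of all genes were, and 1 was lower, where 9.44% were. With DESeq2, 2 of 6 passed (Plpp1 and Enpp2), where 4.43% of all genes did. Plpp1 was lower in PLV by -2.58 (SE 0.38, adjusted p = 6.991e-10 by edgeR), and passed with DESeq2 too (adjusted p = 0.02131), with the higher arm a single library. Enpp2 was higher in PLV by 2.58 (SE 0.39, adjusted p = 3.45e-09 by edgeR), a call lost with at least 1000 UMIs per cell. The mixed fibroblast level was 15.7 CPM, below the 69.95 CPM of droplets of under 50 UMIs in that library. The Apod-led clusters that were highest for Enpp2 made up 41 of 386, 14 of 82 and 10 of 286 fibroblast-like cells, and the part of that share in the difference was not tested. Lpar4 was higher by 1.26 (SE 0.40, adjusted p = 0.01673 by edgeR), a call lost under 6 of 10 alternatives, among them the fits without either PLV library.

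Of 7 genes tested in blood endothelial-like cells 0 passed with edgeR, where 2.49% of all genes did, and 1, Lpar6, had an unadjusted p under 0.05. DESeq2 gave an adjusted p for 4 of them and passed 0, where 1.81% of all genes passed. Of 5 tested in lymphatic endothelial-like cells 0 passed with edgeR (0.871% of genes) and 0 of the 2 to which DESeq2 gave an adjusted p (4.61% of genes), although Enpp2 had an unadjusted p under 0.05 by edgeR. Its difference there was 1.44 (SE 0.39, adjusted p = 0.0830 by edgeR). A test of whether the PLV difference varied over the 7 classes found 0 of the 9 by edgeR (0.139% of all genes passed), with Plpp1 nearest at an adjusted p of 0.137 by edgeR, Lpar1, Enpp2 and Lpar4 also having an unadjusted p under 0.05.

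A list of 25 further genes of the pathway was read beside them. Against fibroblasts 10 of 16 tested passed, 6 higher in muscle and 4 lower, where 37.2% of all genes passed. The higher ones were the kinase genes Rock1 (2.10) and Rock2 (0.86), Gna12 (1.52), a G protein alpha subunit, Arhgef12 (0.72), a guanine nucleotide exchange factor, Sphk2 (1.15), a sphingosine kinase, and the phosphatase Plpp2 (1.48). Lower were Sgpl1 (-2.44), the lyase that breaks down S1P, Sgpp1 (-1.26), an S1P phosphatase, Arhgef1 (-0.68), and Pla1a, a phospholipase, at 0 UMIs in muscle in every library. The count was 6 without PLV replicate 1, 7 without PLV replicate 2 and 7 without the mixed library. Of all genes, 2869 of 9848, 3074 of 11703 and 3518 of 10416 passed in those fits. The Arhgef1 call was lost each time, those of Sphk2 and Arhgef12 without either PLV library, and those of Rock2 and Plpp2 without the mixed library; Plpp2 was not tested without PLV replicate 1.

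Against pericytes 3 of 16 passed, where 11.9% of all genes did: Gna12 was higher in muscle (0.96), and Spns2 (-3.52), the S1P exporter, and Pla1a were lower. The Gna12 call was lost without either PLV library and without the library block, and the Pla1a call without PLV replicate 2. With 50 principal components and with the Ano1 and Hmcn2 kind alone as muscle the Gna12 call was lost as well. Gna12 was 198, 164 and 61.4 CPM in the Pln and Sorbs2 kind and 63.0, 56.0 and 40.4 CPM in the Ano1 and Hmcn2 kind. Rock2 ran the other way, at 488, 543 and 422 CPM in the Pln and Sorbs2 kind and 791, 753 and 648 CPM in the Ano1 and Hmcn2 kind, so genes of the route did not share a direction between the kinds. Spns2 was higher in lymphatic than in blood endothelial-like cells by 0.85 (SE 0.24, adjusted p = 0.01215 by edgeR), at 252, 276 and 157 CPM against 134, 178 and 74.5 CPM. That call was lost without PLV replicate 1 (adjusted p = 0.0712 by edgeR), without PLV replicate 2 (0.0711) and without the library block. In that comparison 4 of 16 passed, where 19.9% of all genes did, with Rock2 also higher and S1pr4 and Rock1 lower. When PLV replicate 1 or 2 was left out 0 passed, where 1513 of 9848 and 1449 of 11703 genes did. Without the block 1 passed (S1pr4), where 1596 of 10437 genes did.

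Over 21 sums of 7 classes in 3 libraries, with the library mean removed, the genes most like Enpp2 among 7780 were Pde3a (Pearson r = 0.942), Cald1 (0.938) and Mustn1 (0.936). For S1pr3 they were Fgf1 (0.951), Calhm5 (0.928) and Mfap3l (0.927), and for S1pr1 Icam2 (0.982), Prkch (0.974) and Gimap6 (0.963). Plpp3 came closest to Nectin3 (0.887), Rgmb (0.877) and Hspg2 (0.869). The sums share libraries and depth, so these values describe likeness only. Enpp2 and S1pr3 had r = 0.515 in the same sums where muscle was summed over its kinds.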

How the data were processed

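Droplet libraries were analysed from UMI counts that the authors deposited unnormalised. Per the file headers the counts came from Cell Ranger 6.1.2 (PLV) and Cell Ranger 4 (mixed), and per the submitters' processing notes on GRCm38, with Seurat; other settings: not given in the sources used here. The PLV files held 2649 and 730 barcodes, already filtered, and the mixed file 896360. Here barcodes with at least 500 UMIs, 300 genes, at most 15% mitochondrial and 20% haemoglobin UMIs were kept; the haemoglobin limit removed 27, 1 and 8, and predicted doublets 10, 3 and 3 (few were marked, and others may remain). The depth kept was 9577642, 3390010 and 7770796 UMIs.

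Clustering was done library by library in scanpy 1.11.5 and leidenalg 0.10.2, at Leiden resolution 1 on 15 neighbours, 30 principal components and 2000 variable genes, without the 9 genes, the 25 pathway genes, haemoglobin, sex-limited and tdTomato genes. These settings were chosen after 24 clusterings had been compared, because a first one with 50 components gave muscle cells another name; Enpp2 and S1pr3 levels of the clusters were in view. Clusters needed at least 3 markers at 2-fold (20 CPM added), each in 20% of their cells, and a log2 lead of 0.5; the latter 2 rules were added then too. Muscle kinds follow the higher of 2 markers each. The members and lists were chosen with earlier results of these data known.

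Sums of at least 10 cells were tested in R 4.3.3 with edgeR 4.0.16 (TMM, filterByExpr) over the 7 classes, with DESeq2 1.42.0 as an alternative; in a test on simulated data, with 200 genes of 10437 changed 4-fold in the muscle-fibroblast comparison, 80% were recovered and 12.6% of calls were false, above the nominal 5%. Named genes are the 9, the pathway genes that passed a test, and the 3 genes most like Enpp2, S1pr1, S1pr3 and Plpp3 by Pearson r of log2(CPM + 10), among genes of at least 50 CPM in a sum. Alternatives tried were DESeq2, no filter on low counts, other cell filters and clusterings, kept doublets, other sets of classes or kinds, no block, and leaving out each library.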

Additional observations from a re-analysis of the deposited data

How the results depend on the processing

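With 3 libraries, 1 of them mixed, small differences could not be told from library spread, and levels of a few UMIs set no order. Alternatives with 1 kind standing for muscle, without the shallow pericyte cluster or with 50 principal components were added after seeing the data. With at most 10% mitochondrial UMIs, at Leiden resolution 2 and with 50 components, a Pln-rich cluster of PLV replicate 1 (145, 79 and 187 cells) held muscle and pericyte markers, stayed unnamed and left the muscle sum; its S1pr3 level was 386.5, 449 and 279 CPM. With the Ano1 and Hmcn2 kind as muscle the fitted S1pr3 difference was -7.18 against fibroblasts and -8.14 against pericytes, from 0 UMIs. The fit without the replicate block called 3117, 835 and 1596 genes in the muscle-fibroblast, muscle-pericyte and endothelial comparisons, against 3884, 1241 and 2074 with it. Of the genes not chosen for muscle, Lpar1, Lpar4, Lpar6 and S1pr2 kept their calls against fibroblasts. Against pericytes Plpp3 kept its call and Plpp1 did not, and between the endothelial classes Lpar4, Lpar6 and Plpp3 kept theirs. No paired analysis was possible because the PLV and mixed groups share fewer than 2 replicate numbers. Leaving out 1 library at a time, 591 to 1102 genes passed against pericytes. Of the genes not chosen for muscle, Plpp3 passed each time and Plpp1 only without the mixed library. The Enpp2 difference between the endothelial classes then ran from -0.96 to 0.034.

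The 4 PLV fits had 1 residual degree of freedom each and borrowed their spread from all genes; those without a PLV library were fitted over all classes, with 5, so their counts come from another form of fit. In muscle 1804 genes passed by edgeR and 188 by DESeq2, 0 at Leiden resolution 0.5, and 25 to 89 without a PLV library. S1pr3 was chosen for muscle and is not counted among passing genes there. Plpp1 was 0.11 in the Ano1 and Hmcn2 kind and 0.045 in the other. Enpp2, near 0 in the reported fit, was 0.014 with at least 1000 UMIs per cell, 0.12 with at most 10% mitochondrial UMIs, 0.071 at resolution 2, 0.099 with 50 components, 0.84 in the Ano1 and Hmcn2 kind alone, and -0.31 to 0.31 without 1 library. In fibroblasts 1571 genes passed, 235 by DESeq2, 1016 at resolution 0.5, 502 to 612 without a PLV library, and 65, with 1 member, at 1000 UMIs or more. In blood endothelium 258 passed, 31 by DESeq2, 30 at 1000 UMIs or more, 49 with at most 10% mitochondrial UMIs, 434 with no filter, 493 at resolution 2 and 6 to 37 without a PLV library, and Lpar6 joined (1 member) with no filter on low counts and at resolution 2. In lymphatic endothelium 78 passed, 35 by DESeq2, 42 at 1000 UMIs or more, 187 with no filter, 16 at resolutions 0.5 and 2, 17 with 50 components and 4 to 13 without a PLV library, and Enpp2 joined (1 member) with no filter or with doublets kept.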

Other observations

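Some clusters stayed outside the classes described. An unnamed cluster of the mixed library (28 cells) held Enpp2 at 543 CPM (344 to 815, from 23 UMIs), an interval that includes the 497 CPM of the P2rx1 and Col12a1 kind. It also held Hmcn2 at 614 and Ano1 at 236 CPM, with Pln and Sorbs2 at 0 UMIs. An unnamed cluster of PLV replicate 2 (44 cells) held S1pr1 at 374 CPM (225 to 585, from 19 UMIs). Mast cell-like cells of PLV replicate 1 (23 cells) held S1pr2 at 109 CPM (29.6 to 278), a level that rests on 4 UMIs.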
